A study of Mus musculus with 15 samples.

Results

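The inflammatory interleukins described here are Il6, Il1a, Il1b, Il10, Il12a, Il12b, Il23a, Il27 and Ebi3. They were taken as every probe set annotated to exactly 1 of these 9 symbols, which gave 9 of the 45101 probe sets on the array and covered 8 of the 9 genes. Il12b had 2 probe sets, the 7 other covered genes had 1 each, and no probe set was listed for Il27. The 15 Affymetrix arrays held 3 samples in each of 5 groups of spleen lymphocytes from mice of the strain B6x129. These were B cells given 25 ug/ml lipopolysaccharide for 4 h (LPS, the Toll-like receptor 4 ligand of bacterial walls), B cells at 0 h, T cells at 0 h, and T cells given 7.5 ug/ml concanavalin A for 4 h or 14 h (ConA, a lectin that activates T cells through surface glycoproteins). The labels list no cells cultured unstimulated. They do not give the mice's age or say whether the 3 samples of a group came from separate animals, so p-values measure the spread between these samples only.

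Interleukins of this group carry inflammatory signals between leukocytes. IL-6 acts through Il6ra and gp130 (Il6st) on Stat3, IL-1 alpha and IL-1 beta act through the MyD88 pathway, and IL-10 restrains inflammation. The remaining members are subunits of paired cytokines: the p35 subunit Il12a joins p40 (Il12b) as IL-12, p19 (Il23a) joins p40 as IL-23, p28 (Il27) joins Ebi3 as IL-27, and Il12a joins Ebi3 as IL-35. Macrophages and dendritic cells are the best known makers of most of them, and activated B cells are known to release IL-6 and IL-10.

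The promoters of 4 interleukins that were raised in B cells after LPS are shown first, those with a match to a motif named below. Il12b was also raised but its promoter held no match, and no promoter was listed for Il10, raised as well. The sequences are the 250 bases before a transcript start, from RefSeq on build GRCm38.p6, written 5′ to 3′ on the strand of the gene. Capitals mark letters that match the NF-kappaB consensus, the AP-1 motif TGANTCA, the IRF motif (GAAA repeated after any 2 bases) or the TATA box motif TATAAA on either strand.
Il6 (chr5:30012864-30013113, plus strand): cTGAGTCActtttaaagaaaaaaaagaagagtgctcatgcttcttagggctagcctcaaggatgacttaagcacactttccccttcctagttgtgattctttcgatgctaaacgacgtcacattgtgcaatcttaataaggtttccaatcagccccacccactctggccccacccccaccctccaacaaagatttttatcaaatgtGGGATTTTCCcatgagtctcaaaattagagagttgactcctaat
Ebi3 (chr17:55952373-55952622, plus strand): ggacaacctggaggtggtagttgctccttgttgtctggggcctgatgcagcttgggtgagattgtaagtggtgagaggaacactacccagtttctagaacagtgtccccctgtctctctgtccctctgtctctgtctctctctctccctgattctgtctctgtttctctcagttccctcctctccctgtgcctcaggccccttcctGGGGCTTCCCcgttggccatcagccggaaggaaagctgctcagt
Il1a (chr2:129309973-129310222, minus strand): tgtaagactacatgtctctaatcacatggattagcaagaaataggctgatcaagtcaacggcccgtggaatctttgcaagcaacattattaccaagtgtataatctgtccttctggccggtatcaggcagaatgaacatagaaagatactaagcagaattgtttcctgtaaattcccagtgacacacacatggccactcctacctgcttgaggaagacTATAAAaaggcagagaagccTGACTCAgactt
Il1b (chr2:129371140-129371389, minus strand): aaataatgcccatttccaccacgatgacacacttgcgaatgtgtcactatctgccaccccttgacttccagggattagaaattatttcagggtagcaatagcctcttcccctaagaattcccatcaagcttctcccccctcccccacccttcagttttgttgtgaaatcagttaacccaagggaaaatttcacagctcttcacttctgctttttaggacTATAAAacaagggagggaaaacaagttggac

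The RefSeq table held windows for 6 of the 9 members, 7 windows in all, with 2 for Il12a. Il6 and Ebi3 each matched the NF-kappaB consensus at bases -44 to -35 from the start, and 7.25% of the 32851 promoter windows of the same length held such a match. The other matches were TATA boxes at -32 to -27 in Il1a and at -31 to -26 in Il1b (a motif in 12.4% of windows) and AP-1 motifs at -249 to -243 in Il6 and at -12 to -6 in Il1a (6.75% of windows). No IRF match was found in the members' windows, against 2.98% of all windows, and the windows of Il12b and Il12a held none of the 4 motifs. No matches overlapped. A match describes letters and does not show a bound site.

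**Figure D1:**
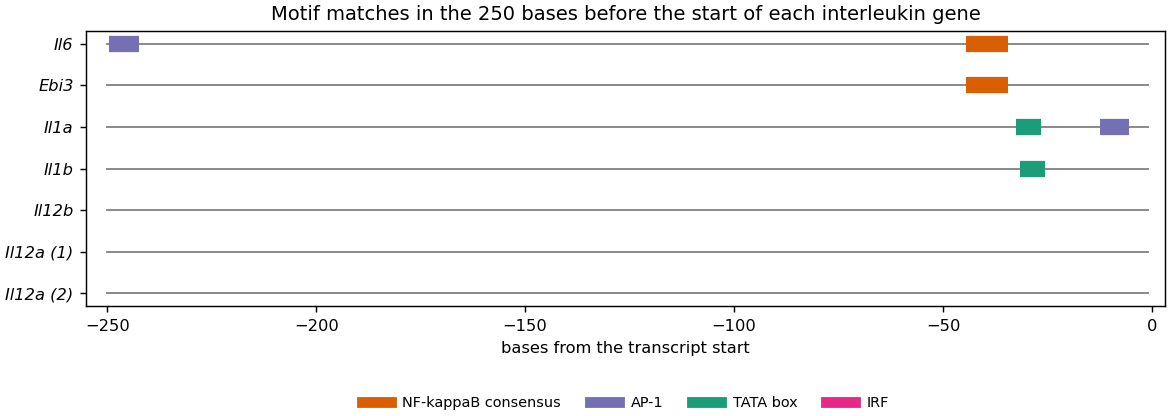
Motif matches (coloured blocks) along the 250 bases before the transcript start of 6 interleukin genes, with distance from the start in bases on the x axis and 1 line per window (Il12a has 2 windows). The NF-kappaB matches of Il6 and Ebi3 sit at the same distance, -44 to -35, and the TATA boxes of Il1a and Il1b are 1 base apart.

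Signals are the authors' log2 values. The lowest value on any array was 2.24, a floor shared within rounding by 41.4% of all values, so a group mean under 4 is called near the floor here. A change against such a group is a lower bound on the true change, and near-floor levels have no order. Changes are given with their standard error from 1 limma model over all 15 arrays, with Benjamini-Hochberg adjusted p-values across the 9044 genes tested, those whose highest group mean was at least 5. Of the 8 covered members 7 were tested. Il23a did not pass the filter, and Il1a, Il10 and Il12b passed it only through B cells after LPS, so they could hardly be tested without differing there.

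Markers of the labelled cell type were bright in each group, and markers of other cells were also present. In B cell arrays 10 of 11 T cell markers were near the floor in either group and no B cell marker was. In T cell arrays no T cell marker was near the floor, and B cell markers were near it in 6 of 11 at 0 h, 5 at 4 h and 6 at 14 h. For a bacterial spike-in RNA (dap), the log2 gap between the 3' and 5' signals was 4.59 in T 0 h replicate 2 and 5.94 in T ConA 4 h replicate 1, against 1.82 to 2.67 on the other T arrays and 0.90 to 1.44 on the B arrays. For actin, a sample RNA, the same gap was 0.56 to 0.91 on the ConA arrays, against 0.39 to 0.50 on the T 0 h arrays, and 0.42 to 0.51 on the B arrays. It was thus higher on every ConA array than on every T 0 h array, and its part in the ConA changes was not tested. Every B array lay below every T array in the spike-in gap, and cell type and labelling cannot be told apart in comparisons of B with T cells. In arrays of a bulk preparation, fewer cells of a type and less RNA per cell cannot be told apart either.

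After 4 h of LPS, Il6, Il1b, Ebi3, Il10, Il1a and Il12b were higher in B cells than at 0 h, while Il12a was lower. In all, 6 of the 7 tested members rose and 1 fell, where 79.9% of all tested genes changed, 37.6% up and 42.3% down. Since most genes changed, a call on each of 7 members is close to the background. Il1a, Il10 and Il12b passed the filter only through B cells after LPS, so their rises were largely fixed by it.

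Il6 read 10.60, 10.64 and 10.66 in B cells after LPS, against 2.34, 2.24 and 2.24 at 0 h. Of the 0 h arrays 2 were at the floor and 1 just above it, and the groups did not overlap. The change was 8.36 ± 0.07 (adjusted p = 7.69e-18), a lower bound.

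Il1b, the secreted form of IL-1 that needs cleavage by caspase-1, read 11.55, 11.65 and 11.55 after LPS, against 4.87, 4.83 and 4.85 at 0 h. All LPS arrays were higher than all 0 h arrays (change 6.73 ± 0.15, adjusted p = 4.70e-14). Il1a, whose product is active without such cleavage, read 6.83, 6.70 and 6.5 after LPS and 2.24 on each array at 0 h (change 4.44 ± 0.07, adjusted p = 2.45e-15, a lower bound). Il1a was thus near the floor at 0 h, whereas Il1b was already above it.

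Il10 read 6.92, 6.98 and 7.02 after LPS and 2.26 on each array at 0 h. The groups did not overlap, and the change was 4.71 ± 0.26 (adjusted p = 5.33e-10), a lower bound.

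The subunits of the paired cytokines went different ways. Ebi3 read 10.39, 10.32 and 10.40 after LPS, against 6.93, 6.98 and 6.90 at 0 h, a rise of 3.43 ± 0.10 (adjusted p = 7.58e-13), and it was well above the floor in both groups. Il12a read 6.16, 5.97 and 6.21 after LPS, against 8.21, 8.05 and 8.55 at 0 h. It was lower on every LPS array and fell by 2.16 ± 0.10 (adjusted p = 1.37e-10). Il12b read 6.36, 6.27 and 6.60 after LPS and 2.24 on each array at 0 h (change 4.17 ± 0.23, adjusted p = 7.72e-10, a lower bound). Its second probe set moved the same way, with 4.26, 4.46 and 5.14 after LPS and 2.24 on each array at 0 h. Il23a stood at 2.24 on all 15 arrays, which gives no level for it.

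The groups can be read for which subunit pairs had both members at a mean of at least 5. For IL-12 (Il12a with Il12b) this held in 1 of 5 groups, B cells after LPS, where the means were 6.11 and 6.41, against 8.27 and 2.24 in B cells at 0 h. For IL-35 (Il12a with Ebi3) it held in both B cell groups, with means of 6.11 and 10.37 after LPS, against 8.27 and 6.94 at 0 h, and in none of the T cell groups. For IL-23 (Il23a with Il12b) it held in none. Signals of different probe sets are not compared here, and transcripts do not show that the paired proteins were made.

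**Figure D2:**
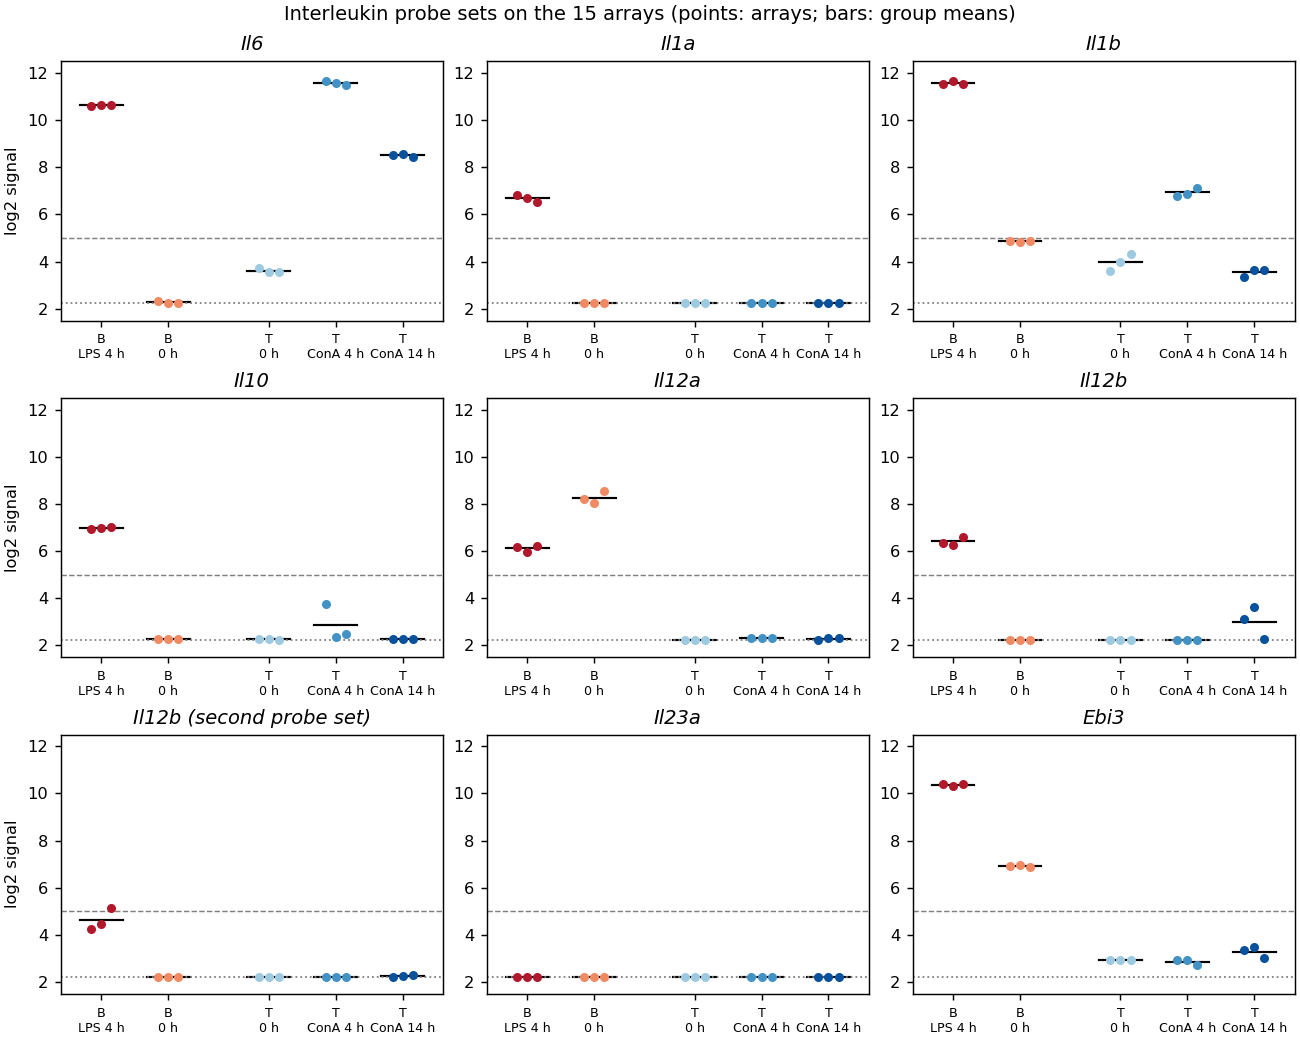
Log2 signal (y axis) of each interleukin probe set in the 5 groups (x axis), with 1 point per array, a bar at the group mean, a dotted line at the floor of 2.24 and a dashed line at 5. Il6 is high in B cells after LPS and in both ConA groups, Il1b is highest after LPS and intermediate in T cells at 4 h of ConA, and Il12a and Ebi3 are above 5 in B cell groups only.

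Markers of other cells were measured in the same B cell arrays. The log2 summed signal of the 11 monocyte, macrophage and neutrophil markers ranged from 11.65 to 11.86 after LPS, against 13.14 to 13.22 at 0 h. Of these, 6 were near the floor after LPS and 4 at 0 h, with Itgam and Cd14 near it in both groups, and the growth factor receptor Csf1r, which defines the lineage, averaged 2.37 after LPS and 9.33 at 0 h. The 7 tested genes of the list did not all move alike: 6 fell, where 42.3% of all tested genes fell and 37.6% rose. Of the 6, Csf1r and Adgre1 passed the filter only through B cells at 0 h, so their falls were largely fixed by it. Mpeg1, the brightest after LPS, averaged 11.48 after LPS and 11.15 at 0 h (adjusted p = 0.207 in the limma model). Lyz1 averaged 7.74 after LPS and 11.58 at 0 h. The 7 red pulp macrophage markers summed to between 6.58 and 6.96 after LPS, against 12.29 to 12.41 at 0 h, with 4 near the floor after LPS and 1 at 0 h. Their brightest genes at 0 h were Vcam1 (4.82 after LPS, 11.14 at 0 h) and Slc40a1 (3.75 after LPS, 10.83 at 0 h). The 7 dendritic cell markers summed to between 9.69 and 10.06 after LPS, against 7.34 to 7.60 at 0 h. That sum was higher through Zbtb46 (9.49 after LPS, 4.86 at 0 h) and Flt3 (7.29 after LPS, 4.99 at 0 h), while Itgax averaged 2.34 after LPS and 6.08 at 0 h, and Xcr1 and Siglech were near the floor in both groups. The erythroid markers summed to 9.58 to 9.79 after LPS, against 11.21 to 11.29 at 0 h, and the plasma cell markers to 11.24 to 11.32 after LPS, against 13.43 to 13.47 at 0 h. The NK cell markers summed to 5.13 to 5.50 after LPS, against 7.06 to 7.27 at 0 h. The part of these cells in the rises of Il6, Il1a, Il1b, Il10, Il12b and Ebi3 and in the fall of Il12a was not tested.

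In T cells, Il6 was raised at both ConA times and Il1b at 4 h. At 4 h 2 of the 7 tested members rose and 0 fell, where 65.9% of all tested genes changed, 33.4% up and 32.5% down. At 14 h 3 rose and 1 fell against 0 h, where 68.4% of genes changed, 36.6% up and 31.9% down, but of these only Il6 reached a mean of 4 at either time. Both comparisons share the 0 h arrays.

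In T cells Il6 read 3.73, 3.54 and 3.57 before ConA (0 h), 11.64, 11.59 and 11.49 at 4 h, and 8.52, 8.56 and 8.43 at 14 h. The 3 times did not overlap, and the signal was highest at 4 h. The change was 7.96 ± 0.07 at 4 h (adjusted p = 3.76e-17) and 4.89 ± 0.07 at 14 h (adjusted p = 3.24e-15), both lower bounds since 0 h was near the floor. Without the arrays that had the weak 5' spike-in signal the changes were 7.89 and 4.85. Between the ConA times, 14 h against 4 h, 2 of the 7 members rose (Il12b and Ebi3, near the floor) and 2 fell, where 48.9% of genes changed, 27.4% up and 21.5% down. Il6 fell by 3.07 ± 0.07 (adjusted p = 3.40e-12).

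In T cells Il1b read 3.61, 3.99 and 4.31 before ConA (0 h), 6.80, 6.88 and 7.14 at 4 h, and 3.35, 3.65 and 3.65 at 14 h. The 4 h arrays were higher than all others, and those at 0 h and 14 h overlapped. The rise at 4 h was 2.97 ± 0.15 (adjusted p = 7.26e-10), a lower bound, and 3.05 without the arrays with the weak spike-in signal, and the change at 14 h against 4 h was -3.39 ± 0.15 (log2 change, adjusted p = 1.26e-09). The 14 h mean of 3.55 and the 0 h mean of 3.97 were near the floor, and their difference of -0.42 ± 0.15 (adjusted p = 0.0217) no longer passed without T 0 h replicate 2 (adjusted p = 0.0526), T 0 h replicate 3 (adjusted p = 0.118), nor when T ConA 14 h replicate 1 was left out (adjusted p = 0.0994).

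The other members stayed near the floor in every T cell group. Il1a was at 2.24 on all 9 T arrays. Il12a lay between 2.24 and 2.32, with changes of 0.08 ± 0.10 at 4 h (adjusted p = 0.525) and 0.05 ± 0.10 at 14 h (adjusted p = 0.677). Il10 read 2.26, 2.26 and 2.24 at 0 h, 3.77, 2.35 and 2.46 at 4 h, and 2.27, 2.26 and 2.27 at 14 h. The 3.77 came from the 4 h array with the weak spike-in signal, and the change at 4 h was 0.61 ± 0.26 (adjusted p = 0.0512). It was 0.15 without that array, with adjusted p = 0.0327, against 0.86 without T ConA 4 h replicate 2 (adjusted p = 0.00914) or 0.80 without T ConA 4 h replicate 3 (adjusted p = 0.0203).

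Il12b and Ebi3 passed the test at 14 h at signals near the floor. Il12b was at 2.24 on all T arrays at 0 h and 4 h, and at 3.12, 3.65 and 2.26 at 14 h (change against 0 h 0.77 ± 0.23, adjusted p = 0.00970), whereas its second probe set read 2.24, 2.25 and 2.31 at 14 h. Without T ConA 14 h replicate 2 the change was 0.45, and without T ConA 14 h replicate 3 it was 1.15. Ebi3 was at 2.96 on each array at 0 h, at 2.96, 2.96 and 2.71 at 4 h, and at 3.37, 3.47 and 3.03 at 14 h (change 0.34 ± 0.10, adjusted p = 0.00888). That call was lost without T ConA 14 h replicate 2 (0.25, adjusted p = 0.0501).

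**Figure D3:**
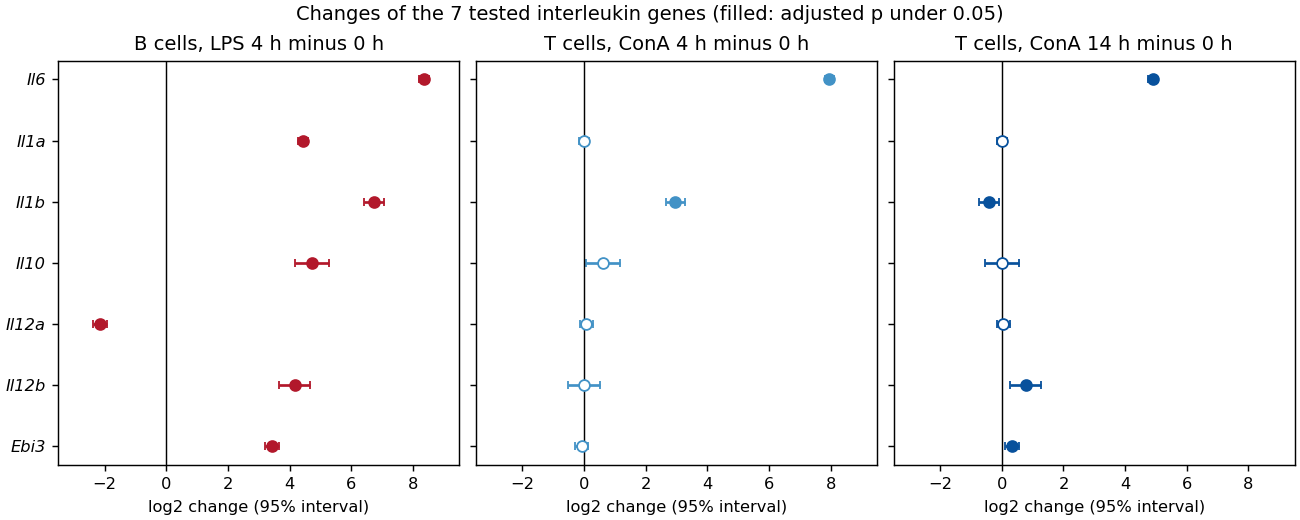
Log2 change (x axis, with 95% confidence intervals from the limma model) of the 7 tested interleukin genes (y axis) in B cells after LPS and in T cells after 4 h and 14 h of ConA, each against 0 h. Filled points have an adjusted p under 0.05. In B cells every point but that of Il12a lies to the right of 0, and in T cells Il6 lies far right at both times.

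Markers of other cells moved in different directions in the T cell arrays. The monocyte, macrophage and neutrophil markers summed to 9.58 to 9.98 at 0 h, 10.79 to 11.24 at 4 h and 7.94 to 8.23 at 14 h, with 6, 5 and 7 of 11 near the floor. The neutrophil gene S100a8 averaged 7.48 at 0 h, 10.19 at 4 h and 4.67 at 14 h, and S100a9 averaged 6.20, 8.65 and 2.65. At 4 h these were the 2 of 7 tested genes that rose, and 2 fell (Lyz2, 7.16 at 0 h and 6.18 at 4 h, and Lyz1, 8.34 at 0 h and 7.54 at 4 h). The list median was -0.28, with 33.4% of all genes up and 32.5% down. Clec7a of the same list, which did not pass the filter, averaged 2.63 at 0 h, 4.58 at 4 h and 2.79 at 14 h. Csf1r, Adgre1, Itgam and Cd14 were near the floor at each time. The B cell markers summed to 9.49 to 9.72 at 0 h, 9.07 to 9.32 at 4 h and 8.63 to 8.72 at 14 h, with Cd79a and Pax5 near the floor at each time. At 4 h 4 of the 11 rose and 2 fell, near the 33.4% and 32.5% of all tested genes. Cr2 averaged 3.09 at 0 h, 6.32 at 4 h and 2.53 at 14 h, so that it peaked at 4 h as Il1b did, and Fcer2a changed by 1.88 ± 0.14, Ebf1 by 1.24 ± 0.27 and Ms4a1 by 0.95 ± 0.29 at 4 h. Cd72 (-2.40 ± 0.09) and Cd79b (-0.53 ± 0.09) fell. The list of platelet, mast cell and basophil markers summed to 7.56 to 7.95 at 0 h, 9.15 to 9.30 at 4 h and 8.71 to 8.87 at 14 h. Its brightest gene at 4 h, the basophil protease Mcpt8, averaged 6.80 at 0 h, 9.14 at 4 h and 8.54 at 14 h, while the mast cell protease Cpa3 averaged 5.90, 3.01 and 3.55 at the same times. Of those 6 markers 3, 5 and 4 were near the floor. The red pulp macrophage list had 6 of 7 markers near the floor at 0 h and all 7 at 4 h and at 14 h, and the dendritic cell list 6, 6 and 5 of 7. The erythroid markers summed to 12.22 to 12.31 at 0 h, 8.04 to 8.22 at 4 h and 7.44 to 7.65 at 14 h, with Car1 at 12.18, 7.94 and 7.26 and Klf1 at 7.94, 3.17 and 2.41. The NK cell markers summed to 12.02 to 12.05, 11.17 to 11.31 and 10.96 to 10.98, with Klrd1 and Eomes as the brightest. The plasma cell markers summed to 12.16 to 12.32, 11.80 to 11.99 and 11.30 to 11.48 at these times. The part of other cells in the rises of Il6 and Il1b was not tested.

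**Figure D4:**
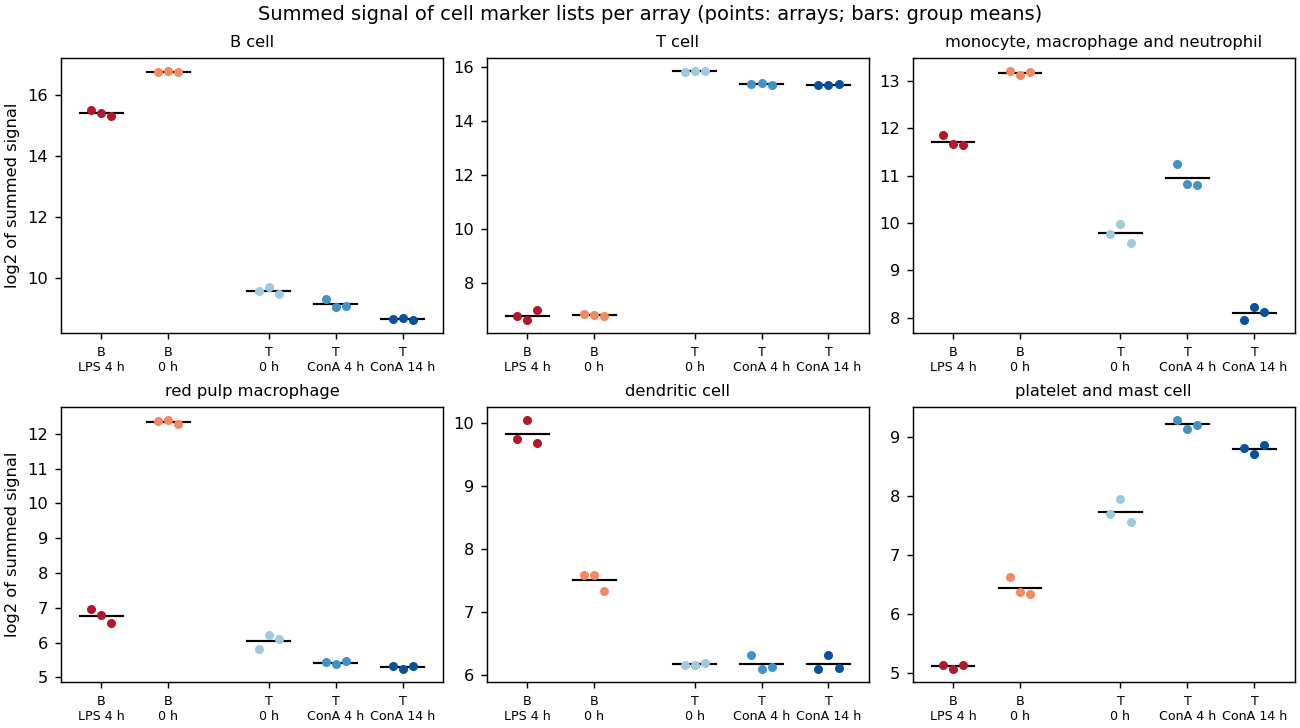
Log2 of the summed signal (y axis) of 6 lists of cell markers on each array in the 5 groups (x axis), with 1 point per array and a bar at the group mean. In B cell arrays the macrophage lists are lower after LPS than at 0 h, and in T cell arrays the monocyte and neutrophil list and the platelet and mast cell list are highest at 4 h.

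B and T cells differed in these interleukins before and after activation. In the 0 h groups the Il12a signal averaged 8.27 ± 0.26 (SD, n = 3) in B cells and 2.24 in T cells, and that of Ebi3 was 6.94 ± 0.04 in B cells and 2.96 in T cells. Both were above 5 on all B arrays and near the floor on all T arrays, with differences, lower bounds, of 6.03 ± 0.10 (adjusted p = 2.04e-15) and 3.98 ± 0.10 (adjusted p = 1.36e-13). Il1b was 0.88 ± 0.15 higher in B cells (adjusted p = 9.33e-05, a lower bound), and Il6 differed by -1.34 ± 0.07 (adjusted p = 4.84e-10) at near-floor signals in both. In this comparison 3 of the 7 members were higher in B cells and 1 was lower, where 76.6% of all tested genes differed, 25.4% higher and 51.1% lower. Those background shares depend on the scaling: 2301 genes were higher and 4626 lower as deposited. After the medians of values above the floor were set equal across arrays, 3159 were higher and 3395 lower.

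After 4 h of activation, 6 of the 7 were higher in LPS-treated B cells than in ConA-treated T cells and 1, Il6, was lower. Of all tested genes 78% differed, 27.9% higher and 50.1% lower (2524 higher and 4529 lower as deposited). After the medians of values above the floor were set equal across arrays, 3991 were higher and 3156 lower. Il1a, Il10 and Il12b passed the filter only through B cells after LPS, so their calls here were largely fixed by it. The Il6 signal was 10.63 ± 0.03 in B cells and 11.57 ± 0.07 in T cells. Its difference was -0.94 ± 0.07 (adjusted p = 1.99e-08), and -0.56 after the above-floor medians were set equal. The Il1b signal was 11.58 ± 0.06 in B cells and 6.94 ± 0.18 in T cells, a difference of 4.64 ± 0.15 (adjusted p = 1.80e-12). The Ebi3 signal was 10.37 ± 0.04 in B cells and 2.87 ± 0.14 in T cells, a difference of 7.50 ± 0.10 (adjusted p = 2.26e-16). Il10, Il1a, Il12a and Il12b differed by 4.12 ± 0.26, 4.44 ± 0.07, 3.80 ± 0.10 and 4.17 ± 0.23 (adjusted p at most 2.84e-09). These and Ebi3 were near the floor in T cells, so that the 5 differences are lower bounds and have no order.

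The interaction term, LPS change minus ConA change at 4 h, passed the test for the 7 members, 6 higher and 1 lower, where 66.1% of genes passed it, 31.3% higher and 34.9% lower. For Il6 both changes are lower bounds, so the size and sign of its difference are not determined. For Il1b only the ConA change is a lower bound, so its difference is an upper bound. Il1a, Il10 and Il12b passed the filter only through B cells after LPS, so their outcome was largely fixed by it.

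The order of the groups differed between members. Il6 ran from T cells at 4 h of ConA to B cells after LPS, T cells at 14 h of ConA and then both 0 h groups, with no overlap between neighbours, though the 0 h groups were near the floor. Il1b ran from B cells after LPS to T cells at 4 h, B cells at 0 h and T cells at 0 h without overlap, and T cells at 0 h overlapped those at 14 h. Ebi3 was highest in B cells after LPS, then in B cells at 0 h, and Il12a was highest in B cells at 0 h, then in B cells after LPS. For Il1a, Il10 and Il12b the order beyond B cells after LPS lay near the floor.

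Over the 15 arrays Il1a, Il10 and Il12b correlated with each other at Pearson's r between 0.944 and 0.979. Each was near the floor in every group but B cells after LPS, through which alone it passed the filter. A high r among them was thus largely fixed by that group. Il6 correlated with Il12a at -0.369 and with Ebi3 at 0.0822. The arrays share their groups, preparation and normalization, so these values describe the group pattern and carry no p. Among non-member genes, the 3 closest to Il6 were the NF-kappaB feedback gene Tnfaip3 (r = 0.986), Ppp1r16b (r = 0.986) and the immediate early receptor Nr4a1 (r = 0.985). The closest to Il1b were Dhx30 (r = 0.990), the hyaluronan receptor Cd44 (r = 0.982) and Snapc4 (r = 0.981). The closest to Ebi3 were Ankrd33b (r = 0.996), the antiviral kinase Eif2ak2 (r = 0.994) and Gypc (r = 0.991), and the closest to Il12a were 4930426D05Rik, Lynx1 and Snx8 (each r = 0.999).

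Receptors of these interleukins moved both ways. Of 10 listed receptor genes with a probe set 8 were tested, and 2 rose and 5 fell in B cells after LPS (median change -1.43, against -0.05 over all tested genes, of which 37.6% rose and 42.3% fell). The decoy receptor Il1r2 rose by 4.00 ± 0.09 (6.51 after LPS, 2.51 at 0 h) and the IL-1 receptor accessory chain Il1rap by 1.97 ± 0.13, while the IL-27 receptor Il27ra fell by 3.53 ± 0.06 and Il6ra fell by 1.78 ± 0.13. The same counts, 2 up and 5 down, though not of the same genes, held for T cells at either ConA time (medians -1.0 and -0.45, against 0.00 and 0.03 over all genes, of which 33.4% rose and 32.5% fell at 4 h and 36.6% rose and 31.9% fell at 14 h). Between the ConA times, 14 h against 4 h, 4 rose and 1 fell (median 0.57, with 27.4% of all genes up and 21.5% down). Il6ra averaged 11.24 in T cells at 0 h, 9.25 at 4 h and 9.25 at 14 h, and it fell by 1.99 ± 0.13 at 4 h and by 2.0 ± 0.13 at 14 h. Il27ra fell by 1.74 ± 0.06 at 4 h and by 1.67 ± 0.06 at 14 h, and at 4 h Il10ra fell by 2.08 ± 0.15 and Il10rb fell by 1.57 ± 0.09. At 14 h the IL-12 receptor chain Il12rb1 rose by 3.12 ± 0.12, to a mean of 6.58, and Il1r2 rose by 2.60 ± 0.09. Both were near the floor in T cells at 0 h, so these rises are lower bounds. Il12rb1 passed the filter only through T cells at 14 h, so its rise was largely fixed by it. The 2 rises at 4 h were small: Il6st by 0.21 ± 0.09 (adjusted p = 0.0499) and Il1r2 by 0.26 ± 0.09, near the floor. Il12rb1 fell by 0.43 ± 0.12 at 4 h, also near the floor, and Il6st fell by 0.82 ± 0.09 at 14 h.

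Of 9 tested genes of the Jak-Stat list, which holds 5 Jak and Stat genes and the target genes Socs1, Socs3, Bcl3 and Pim1, 7 rose and 1 fell in B cells (median 2.35, with 37.6% of all genes up and 42.3% down). Of the Jak and Stat genes Jak2, Stat3 and Stat4 rose, Tyk2 fell by 0.93 ± 0.09 and Jak1 changed by -0.08 ± 0.15 (adjusted p = 0.637). The feedback inhibitor Socs3 changed by 3.6 ± 0.09, the kinase Pim1 by 2.98 ± 0.10, Stat4 by 2.75 ± 0.08 and Stat3, which carries the IL-6 and IL-10 signals, by 2.52 ± 0.11. In T cells 5 rose and 1 fell at 4 h (median 1.27, with 33.4% of all genes up and 32.5% down), led by Socs1 (3.62 ± 0.12), Bcl3 (2.29 ± 0.12), Pim1 (2.10 ± 0.10) and Stat3 (1.44 ± 0.11). At 14 h 7 rose and 2 fell (median 0.85, with 36.6% up and 31.9% down), with Socs1 at 3.02 ± 0.12, Bcl3 at 2.47 ± 0.12, Pim1 at 1.30 ± 0.10 and Stat3 at 0.94 ± 0.11.

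Regulators of the interleukin genes rose in 12 of 16 tested and fell in 3 in B cells (median 1.08, with 37.6% of all genes up and 42.3% down). The AP-1 partner Batf rose by 4.46 ± 0.09, the nuclear IkappaB protein Nfkbiz, a cofactor for Il6 transcription, by 3.93 ± 0.08, and the NF-kappaB subunit Rel by 2.82 ± 0.16, while Maf, an activator of Il10, fell by 4.69 ± 0.32. In T cells 14 rose and 0 fell at 4 h (median 1.03, with 33.4% of all genes up and 32.5% down), and 13 rose and 1 fell at 14 h (median 0.79, with 36.6% up and 31.9% down). The factor Irf4 rose by 8.31 ± 0.19 at 4 h and 7.85 ± 0.19 at 14 h, Irf8 by 4.07 ± 0.10 and 3.80 ± 0.10, Rel by 3.07 ± 0.16 and 3.35 ± 0.16, and Nfkb2 by 2.92 ± 0.12 and 2.72 ± 0.12.

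Genes of IL-1 processing and MyD88 signalling rose in 3 of 10 and fell in 7 in B cells (median -1.61, with 37.6% of all genes up and 42.3% down). The inflammasome adaptor Pycard fell by 3.25 ± 0.10, the inhibitory receptor Sigirr fell by 4.03 ± 0.27 and the kinase gene Irak2 fell by 2.09 ± 0.09. Il1rn, the IL-1 receptor antagonist, rose by at least 3.16 ± 0.08 (5.40 after LPS, 2.24 at 0 h). It passed the filter only through B cells after LPS, so its rise was largely fixed by that filter. In T cells 2 rose and 3 fell at 4 h (median -0.03, with 33.4% of all genes up and 32.5% down), with Pycard at -2.84 ± 0.10, Sigirr at -1.31 ± 0.27, Traf6 at 0.86 ± 0.13 and Casp1, which encodes caspase-1, at -0.70 ± 0.13. At 14 h 3 rose and 2 fell (median -0.10, with 36.6% up and 31.9% down), with Casp1 at -1.18 ± 0.13, Pycard at -1.02 ± 0.10, Traf6 at 0.94 ± 0.13 and Irak2 at 0.68 ± 0.09.

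Of 6 tested genes of LPS recognition 1 rose and 5 fell in B cells (median -2.02, with 79.9% of all genes called, 37.6% up and 42.3% down). The LPS receptor Tlr4 averaged 2.24 after LPS and 6.98 at 0 h, a fall of at least 4.74 ± 0.11 (log2 change -4.74), and its partner Ly96 fell by 4.03 ± 0.17, the related Cd180 fell by 3.34 ± 0.12 and Ly86 fell by 0.70 ± 0.10. Tlr4, Ly96 and Cd180 passed the filter only through B cells at 0 h, so their falls were largely fixed by it. The count of falls and the median include these genes. Macrophages also express Tlr4 and Ly96. Csf1r and the red pulp macrophage list were lower in the same arrays while Mpeg1 did not pass the test, and their part in these falls was not tested. In T cells 0 rose and 1, Ly96, fell at each time, at means near the floor. Of all tested genes 33.4% rose and 32.5% fell at 4 h, and 36.6% rose and 31.9% fell at 14 h.

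Other inflammatory cytokines moved in both cell types. Of 8 tested inflammatory cytokines 1 rose and 2 fell in B cells, Tnf by 1.00 ± 0.12, Ltb by -2.32 ± 0.08 and Lta by -1.32 ± 0.10 (log2 changes, list median -0.05, with 37.6% of all genes up and 42.3% down). In T cells 7 rose and 1 fell at each time (medians 2.92 at 4 h and 2.46 at 14 h, with 33.4% and 36.6% of all genes up). At 4 h the largest estimates were those of Il2 (5.27 ± 0.13), Il4 (4.65 ± 0.10), Il21 (4.10 ± 0.20) and Tnf (3.0 ± 0.12). At 14 h they were those of Il2 (6.15 ± 0.13), Ifng (3.97 ± 0.21), Il17a (3.71 ± 0.11) and Il4 (2.61 ± 0.10). Il2, Il4, Il17a and Il21 passed the filter only through ConA groups, so their rises were largely fixed by it. The counts and medians include these genes. All of them were near the floor in T cells at 0 h, so their changes are lower bounds and have no order. Of 11 further members of the IL-6, IL-1 and IL-10 families with a probe set 4 were tested. In B cells Lif rose by 0.38 ± 0.14 at near-floor signals and Il18 fell by 2.23 ± 0.18. In T cells Lif, an IL-6 family cytokine, rose by 4.01 ± 0.14 at 4 h and 5.18 ± 0.14 at 14 h, both lower bounds from a near-floor 0 h signal. Lif passed the filter only through the ConA groups, so its rises were largely fixed by it. Clcf1 fell by 1.53 ± 0.17 at both times, and Il18 fell by 0.56 ± 0.18 at 14 h near the floor.

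**Figure D5:**
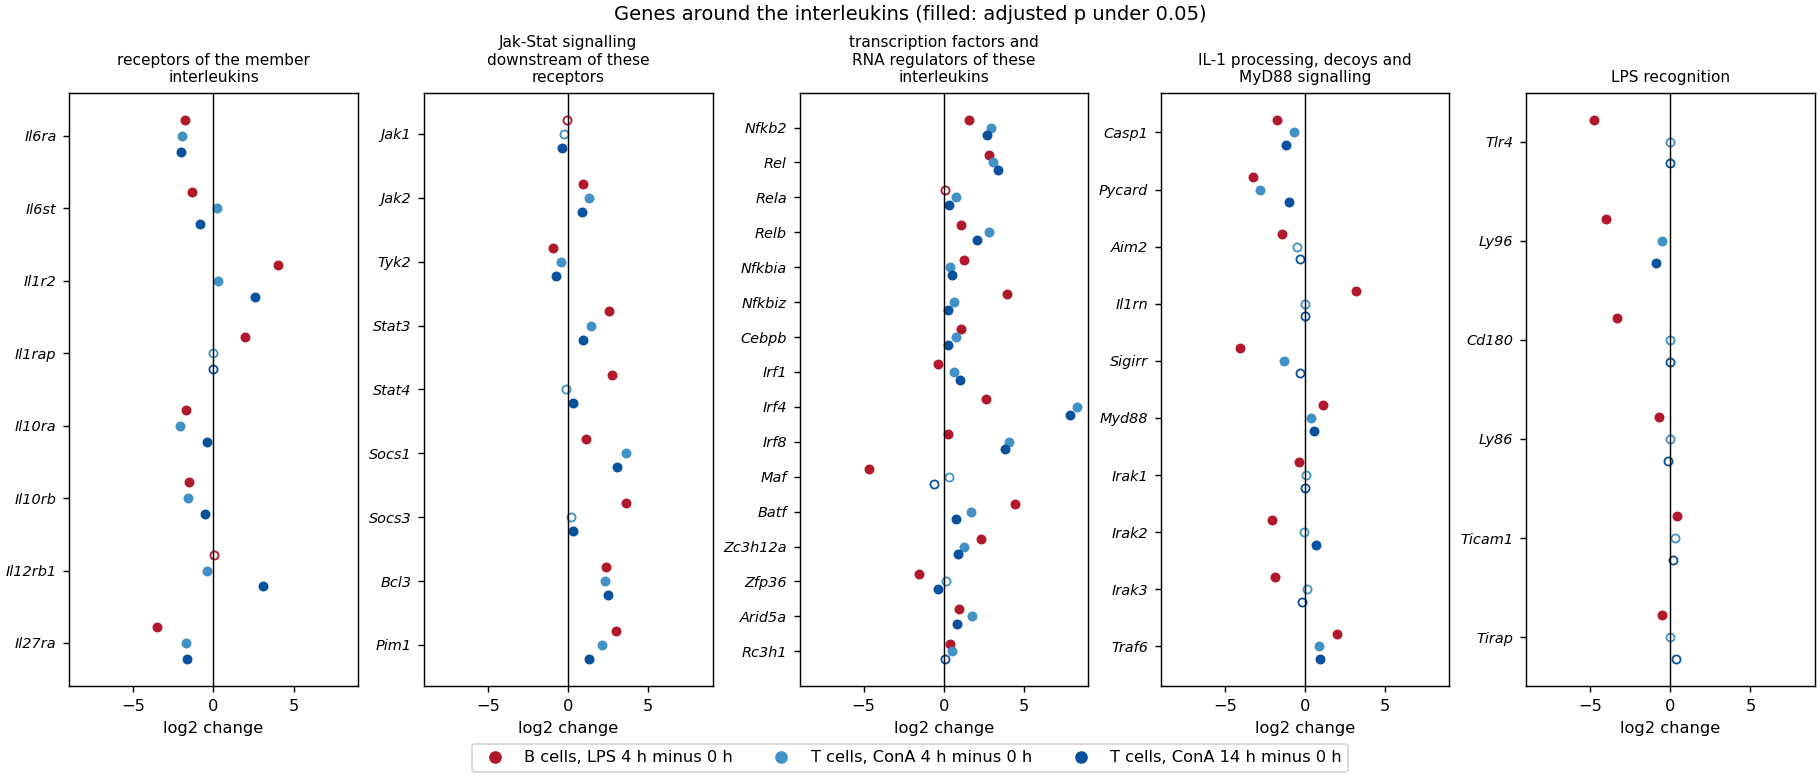
Log2 change (x axis) of the tested genes (y axis) of 5 lists in B cells after LPS and in T cells after 4 h and 14 h of ConA, each against 0 h, with filled points for an adjusted p under 0.05. Regulators lie mostly right of 0 in all 3 comparisons, and Tlr4 and Ly96 lie far left in B cells.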

How the data were processed

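The authors deposited log2 signals that the submitters' processing notes credit to GCRMA, which corrects background and normalizes arrays together, with no version listed. Per the labels' protocols, the labelling of each sample started from 100 ng of total RNA. Equal RNA mass was labelled, so RNA amount per cell is not visible.

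Probe sets were named from the platform table. RefSeq matched 34741 of the 34945 probe sets with 1 symbol by Entrez number, and 0 symbols changed. Each of 18193 genes was represented by its brightest probe set on average. The 9044 genes with a highest group mean of at least 5 were fitted with limma 3.58.1 in R 4.3.3 (group means, eBayes, 10 residual and 3.17 prior degrees of freedom), and adjusted p under 0.05 was called. The model was tested on simulated data. Correlations within groups were 0.995 to 0.999. The number of arrays limits the precision.

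The rule for named genes took all members, up to 4 changed genes with the largest change per list and comparison, the 2 brightest genes of each marker list in the group described (the text names them for some lists only), and the 3 genes most correlated with each member whose highest group mean was at least 7. Other markers, named as defining or as moving most, and other genes of the receptor and Jak-Stat lists were chosen after their values were seen. Members, lists and tests were chosen with earlier results of these data known. Lists are described by counts and medians. Same-numbered arrays deviated together with r from -0.457 to 0.236 within the comparisons made, so the numbers were not taken as pairs.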

Additional observations from a re-analysis of the deposited data

Results flagged for a closer look

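The difference between the 4 h change with LPS in B cells and with ConA in T cells passed the interaction test of the limma model for the 7 tested interleukins (66.1% of all tested genes passed it). The difference, LPS change minus ConA change on the log2 scale, was 0.40 ± 0.10 for Il6 (adjusted p = 0.00277), with changes of 8.36 and 7.96, both lower bounds from near-floor 0 h signals, so that its size and sign are not determined and it does not show a difference in response. It was 4.44 ± 0.10 for Il1a, 4.11 ± 0.36 for Il10 and 4.17 ± 0.33 for Il12b, all near the floor in T cells. These passed the filter only through B cells after LPS, so their outcome was largely fixed by it. It was 3.76 ± 0.21 for Il1b (changes 6.73 and 2.97), 3.51 ± 0.14 for Ebi3 (3.43 and -0.08) and -2.24 ± 0.15 for Il12a (-2.16 and 0.08). The adjusted p of these 6 was at most 2.67e-07. For Il1b the ConA change is a lower bound from a near-floor 0 h mean of 3.97, so its difference is an upper bound. Apart from Il6 and Il1b, the T cell signals were near the floor at 0 h and 4 h, so that their ConA changes are not measured. LPS and ConA are different stimuli, so stimulus and cell type cannot be told apart.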

How the results depend on the processing

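Of 49 results for single members, 7 members in 7 comparisons, 41 kept their call under all 25 alternatives that gave a value. With genes filtered at a highest group mean of 7, which leaves out Il1a, Il10 and Il12b, 4 members were called for LPS in B cells, 4 for B against T cells at 4 h and 4 for the interaction, against 7 each. With only the groups of a comparison in the fit, 2 members were called for ConA 14 h against 0 h and 2 for 14 h against 4 h, against 4 each. Setting the medians of above-floor values equal across arrays moved the median LPS change of all genes in B cells by 0.12. At 14 h against 4 h it gave 2981 higher and 1390 lower genes, against 2478 and 1948. It also shifted floor values, which gave Il1a a difference of 0.24 between B and T cells at 0 h (adjusted p = 0.0168), against -0.0002. The 8 remaining results were that one and 7 in T cells: Il1b, Il12b and Ebi3 at 14 h against 0 h, Il12b, Ebi3 and Il10 at 14 h against 4 h, and Il10 at 4 h against 0 h; the cause was not tested. With the replicate number as a block, 7162 genes changed with LPS in B cells (7224 without it), 5889 with ConA at 4 h (5961) and 6098 at 14 h (6190), and no member's call changed; the numbers do not mark shared animals in the labels. The floor limits what can be said of Il23a in all groups and of Il1a, Il10, Il12a, Il12b and Ebi3 in T cells.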
